A study of Homo sapiens with 24 samples.

Results

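The comparison described here set 3 h of dexamethasone against ethanol in 1 cell line, U2OS human osteosarcoma cells that express the SoF form of the glucocorticoid receptor (GR). It used 4 of the 24 libraries of the series, 2 from SoF cells after 3 h of 100 nM dexamethasone and 2 from SoF cells in 0.01% ethanol (called 0 h). SoF GR carries the substitution K492A, which weakens RNA binding and, to a lesser degree, DNA binding. It was fused to HaloTag, driven by the CMV promoter from a PiggyBac insertion, and carried by 1 puromycin-selected pool of cells that had been sorted to match the nuclear GR level of the other lines. The lines used beside it carried wild-type GR (wt) or R470A GR (Ctrl), which weakens DNA binding alone, in the same vector and the same U2OS background. In every library RNA was labelled with 200 µM 4-thiouridine (4sU) for 1 h before harvest and purified, so the counts reflect RNA made in about that hour. The 0 h dishes also received fresh medium, but how long they stayed in it is not given in the sources used here. Time after the change of medium and dexamethasone therefore cannot be told apart when 3 h is set against 0 h within a line.

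GR is a nuclear receptor that waits in the cytoplasm with heat shock chaperones until a glucocorticoid such as dexamethasone binds it. It then enters the nucleus, binds DNA at palindromic glucocorticoid response elements, and raises transcription of genes such as FKBP5, TSC22D3 and PER1. It also lowers transcription of many genes driven by AP-1 and NF-kB. U2OS cells have very little GR of their own, which is why they are used to study introduced forms of the receptor.

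The 2 libraries at 0 h held 13410755 and 9199479 exon counts and the 2 at 3 h held 12039927 and 11609376. Of 8 mesenchymal and bone markers, 7 reached 1 CPM (counts scaled to the total of each library) in at least 1 of the 4 libraries, with a summed level of 2200 and 2480 CPM at 0 h and 3660 and 4410 CPM at 3 h. The exception was COL1A2, at 0.172 to 0.602 CPM. Epithelial markers summed to 8.8 to 22.4 CPM over 4 genes, endothelial markers to 3.39 to 4.44 CPM over 3, and blood markers to 0.516 to 1.9 CPM over 4, of which CD3E was at 0 in all 4 libraries. Nothing in the labels says whether the 2 libraries of a group came from separate cultures, so the p-values measure the spread between libraries, which may be technical. The 2 libraries of a group were biotinylated and pulled down as a pair, so that step and the group cannot be told apart.

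After 3 h, 4563 of 23651 tested genes (19.3%) differed from 0 h at an adjusted p under 0.05 (edgeR quasi-likelihood test with Benjamini-Hochberg adjustment, n = 2 libraries a group). Of these, 2645 genes (11.2% of those tested) rose and 1918 (8.11%) fell. The median log2 change was 0.92 among rising genes, -1.1 among falling genes and -0.03 over all tested genes. Large changes were found on both sides, with 242 rising and 328 falling genes at a log2 change of at least 2, and 83 and 102 genes at a log2 change of at least 3. The 0 h and 3 h libraries did not overlap for 4560 of the called genes (99.9%), against 58.7% of all tested genes. The number called changed with each library left out. It was 1772 without replicate 2 of 0 h, 2307 without replicate 1 of 3 h, 2243 without replicate 2 of 3 h and 5542 without replicate 1 of 0 h. The counts of rising or falling genes in the 43 lists described here moved by more than 1.5 times in 46 of 86 cases without replicate 2 of 0 h and in 20 to 43 cases without another of the 4 libraries.

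**Figure D1:**
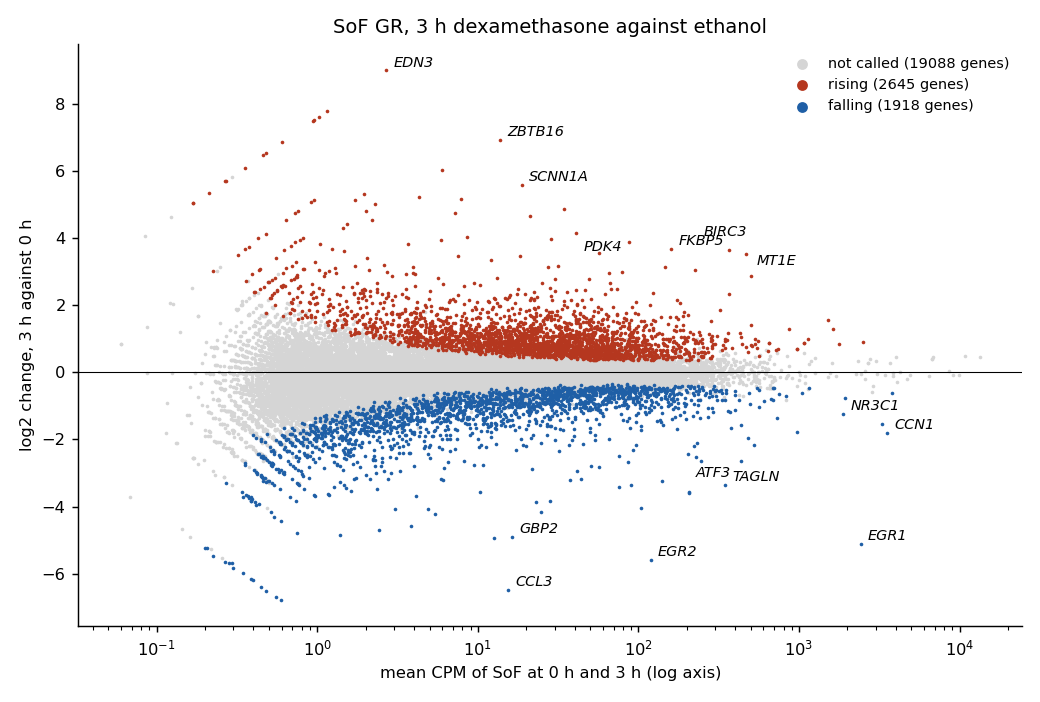
Each point is 1 tested gene, with its mean CPM over the SoF libraries at 0 h and 3 h on a log axis and its fitted log2 change at 3 h on the vertical axis. The 2645 rising genes (red) and 1918 falling genes (blue) lay among the uncalled ones (grey) at low and high levels, and the fitted change of a gene with no count in 1 group, such as EDN3, depends on the prior count.

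The receptor's own gene, NR3C1, was at 2830 and 2430 CPM at 0 h and at 1120 and 1130 CPM at 3 h, with no overlap between the groups (log2 change -1.23, SE 0.21, edgeR adjusted p = 0.000264). Its level at 1 h, 6270 and 5330 CPM, was above all other SoF libraries. In the other lines NR3C1 at 0 h was at 552 and 824 CPM in wt and at 3200 and 3430 CPM in Ctrl, so labelled RNA of this gene was lower in wt than in SoF and Ctrl although the pools had been sorted on nuclear GR. Reads from the introduced construct and from the cell's own gene are counted together here. The list of 27 receptor and coregulator genes held 4 rising members (14.8%, against 11.2% of all tested genes) and NR3C1 as the falling one, with a median log2 change of 0.11. The rising count was 1 without replicate 2 of 0 h and 2 without either 3 h library. The histone methyltransferase EHMT2, a known coregulator of GR, had a log2 change of 1.3.

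Most genes known to be induced by glucocorticoids rose. Of 33 tested members of that list, which was put together with earlier results of these data known, 24 rose (72.7%, against 11.2% of all tested genes) and none fell, with a median log2 change of 1.69 against -0.03 for all tested genes. The count was 15 without replicate 2 of 0 h and 19 to 23 with another library left out. ZBTB16, a zinc finger repressor, went from 0.147 and 0.301 CPM at 0 h to 29.6 and 24.6 CPM at 3 h. Its log2 change of 6.92 (SE 0.41, edgeR adjusted p = 3.21e-10) rested on 5 counts in all at 0 h against 652 at 3 h. FKBP5, an immunophilin that lowers the hormone affinity of GR, was measured at 19.4 and 27.3 CPM and then at 298 and 297 CPM, a 12.8-fold rise (SE of the log2 change 0.22, edgeR adjusted p = 3.85e-10). IP6K3, an inositol hexakisphosphate kinase, stood at 1.47 and 1.7 CPM at 0 h and at 39.9 and 41.1 CPM at 3 h, which was 25.5-fold higher (edgeR adjusted p = 3.21e-10). In all 3 genes both libraries at 3 h lay far above both at 0 h, and the 0 h libraries of ZBTB16 differed the most from each other. SCNN1A, which encodes the alpha subunit of the epithelial sodium channel, was at 0.885 and 0.602 CPM and rose to 41.6 and 32.5 CPM (48.0-fold, edgeR adjusted p = 7.13e-09).

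Further members of the list rose less. KLF9, a transcription factor, went from 40.6 and 33.4 CPM to 170 and 143 CPM (log2 change 2.08, SE 0.26). PER1, a core repressor of the circadian clock, was at 123 and 89.6 CPM and then at 224 and 213 CPM (log2 change 1.04, SE 0.22), after a higher level of 415 and 296 CPM at 2 h. SGK1, a kinase that raises sodium channel activity, moved from 290 and 289 CPM to 491 and 454 CPM (log2 change 0.71, SE 0.15). Called changes in the list also included TSC22D3 (2.33), which encodes the anti-inflammatory protein GILZ, and the factors CEBPB (3.04) and CEBPD (2.07), here named after their values were seen. The 9 members that were not called had log2 changes from -0.53 to 1.94. They included DUSP1 (-0.41, adjusted p = 0.174) and PER2 (0.16, adjusted p = 0.643).

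**Figure D2:**
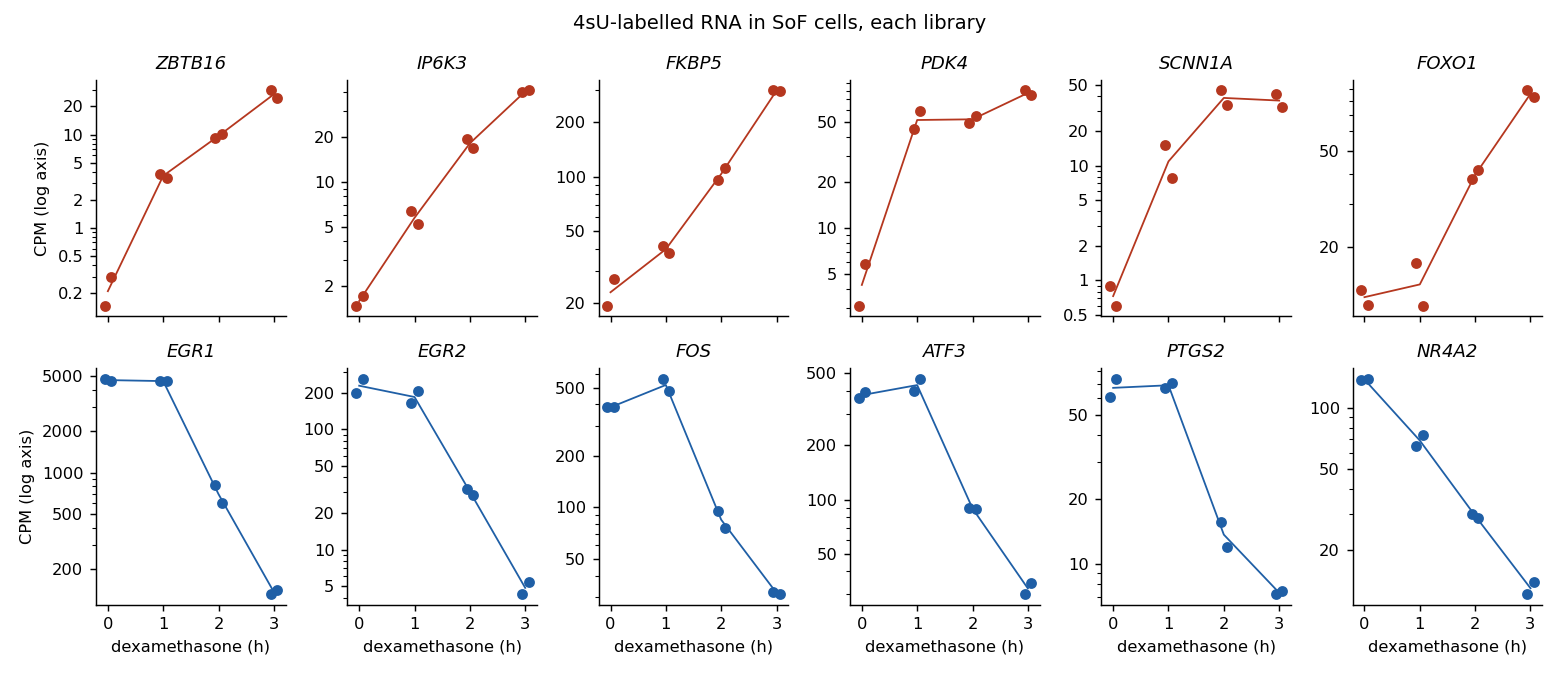
Each panel shows 1 gene in the 8 SoF libraries at 0, 1, 2 and 3 h of dexamethasone, with CPM on a log axis that differs between panels, points for libraries and lines through the geometric means of the 2. The 6 genes in the upper row were higher at 3 h than at 0 h in both libraries, and the 6 in the lower row were lower, most of them with a level at 1 h near that at 0 h.

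The strongest rising genes outside the list had varied roles. ADPRHL1, a heart-enriched member of the ADP-ribosylhydrolase family, went from 11.4 and 10.9 CPM to 161 and 165 CPM, and it had reached 164 and 152 CPM at 2 h. The lncRNA MYOSLID was at 24 and 26.9 CPM at 0 h, at 79.3 and 72.2 CPM at 1 h and at 79.0 and 73.4 CPM at 3 h. CCND3, a cyclin that drives the G1 phase, rose from 22 and 13.9 CPM to 119 and 111 CPM (log2 change 2.67, SE 0.24, edgeR adjusted p = 1.68e-07). These genes differed in timing, since MYOSLID was at its 3 h level after 1 h and CCND3 was higher at 3 h than at 2 h. IL1R1, the signalling receptor for interleukin 1, had a log2 change of 2.16 (SE 0.19), GGT5, a gamma-glutamyltransferase that acts on leukotriene C4, had 4.73 (SE 0.37), and CRACDL and SMIM3 had 4.87 and 2.66.

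Some genes had counts in SoF cells at 3 h and none in either SoF library at 0 h. EDN3, which encodes the peptide endothelin 3, had no count at 0 h and 5.65 and 5.07 CPM at 3 h, at least 42.1-fold higher when 3 counts over both 0 h libraries are taken as the floor. On the same basis the protease inhibitor gene SPINK13 was at least 18.0-fold higher, the pseudogene ADAMTS7P1 at least 16.1-fold and the T-box factor gene TBX1 at least 9.43-fold. Unlike EDN3, these genes had traces at 0 h in wt or Ctrl, of at most 0.236 CPM (SPINK13 in Ctrl). ADAMTS7 itself, a secreted protease that cuts cartilage matrix protein, rose from 1.62 and 0.802 CPM to 15.4 and 12.5 CPM (log2 change 3.46, SE 0.33). Reads of ADAMTS7 and its pseudogene can be confused because the copies are similar. The lncRNA LINC02772 rose from 0.221 and 0.1 CPM to 14 and 9.54 CPM.

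Promoter sequences were read from RefSeq (GRCh38.p14), which gave 18628 windows for 13003 of the tested genes, each from 250 bases before to 50 bases after a start site. Some genes have several windows, and windows of 1 gene can overlap. The palindromic glucocorticoid response element (AGAACA, 3 bases, TGTTCT) was found in 0 windows of rising genes, 0 of falling genes and 0 of all tested genes. With 1 mismatch allowed it was found in 0.0339%, 0.0653% and 0.0483%. The single hexamer AGAACA, on either strand, was in 8.72% of the windows of rising genes, 12.9% of those of falling genes and 10.5% of all. Among genes with a log2 change of at least 2 in size the shares were 13.5% for rising and 20.5% for falling genes, so the hexamer was more frequent in windows of falling genes at both levels. Windows of rising genes such as FKBP5, IL1R1 and CASTOR1 hold it, and so do windows of falling genes such as KRTAP2-3, CNN1 and LIMA1. Stretches from 3 further rising genes were picked as examples because they hold it upstream of the start. Each is written on the gene's strand with the match in capitals. In PDK4 the hexamer lies on the opposite strand and so reads TGTTCT.
IP6K3 (chr6:33746980-33747035, minus strand): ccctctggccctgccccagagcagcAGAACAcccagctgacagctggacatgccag
PDK4 (chr7:95596732-95596766, minus strand): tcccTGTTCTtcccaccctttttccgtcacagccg
SLC46A3 (chr13:28718983-28719038, minus strand): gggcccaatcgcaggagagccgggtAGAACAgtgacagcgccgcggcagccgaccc
SLC46A3, a lysosomal transporter, rose from 8.77 and 10.7 CPM to 45.8 and 48.1 CPM (log2 change 2.27, SE 0.24).

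Some genes that switch fuel use or restrain growth signalling were among the clearest rises, while most tested members of their lists were not called. Shares in the fuel list were 29.7% rising and 10.8% falling, against 11.2% and 8.11% of all tested genes. PDK4, a kinase that shuts off pyruvate dehydrogenase, was at 3.1 and 5.81 CPM at 0 h and at 80.2 and 74.4 CPM at 3 h (log2 change 4.15, SE 0.31, edgeR adjusted p = 1.09e-08). TXNIP, an arrestin that limits glucose uptake, rose from 10.6 and 14.6 CPM to 70.5 and 66.8 CPM (log2 change 2.45, SE 0.3). ETNK2, an ethanolamine kinase of phospholipid synthesis, rose from 15 and 10.3 CPM to 59.6 and 52.1 CPM. Of 37 lipid and fuel switching genes, 11 rose and 4 fell, with a median log2 change of 0.25, and 7 rose and 1 fell without replicate 2 of 0 h. The falling ones included PPARGC1A (-1.18), a coactivator of mitochondrial genes, while its relative PPARGC1B rose (1.77).

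FOXO1, the fasting transcription factor that insulin keeps out of the nucleus, went from 13.3 and 11.5 CPM to 88.6 and 83.2 CPM (log2 change 2.78, SE 0.3, edgeR adjusted p = 1.3e-06). PIK3R1, the regulatory subunit of PI3 kinase, had a log2 change of 1.26 (SE 0.18). In the insulin and FOXO list 6 of 26 members rose (23.1%, against 11.2% of all tested genes). The 2 that fell (7.69%, against 8.11%) included the adaptor GAB1 at -0.69, and 18 were not called. Of 13 mTORC1 inhibitors 3 rose (23.1%, against 11.2% of all tested genes, and 1 without replicate 2 of 0 h) and none fell. They were the arginine sensor CASTOR1 (7.81 and 4.51 CPM, then 56.7 and 57.2 CPM), DDIT4 (126 and 53.4 CPM, then 324 and 257 CPM) and the GATOR1 subunit NPRL2 (log2 change 0.88). The 0 h libraries of DDIT4 lay further apart than its 3 h libraries, and its SE was 0.39 on the log2 scale. Changes in the mTORC1 list ran from -1.3 to 3.18, with a median of 0.16.

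Metallothioneins, small proteins that bind zinc and copper, rose in 4 of 5 tested members of the list (80.0%, against 11.2% of all tested genes). The median log2 change of the list was 2.88, while the zinc sensor MTF1 had 0.1 (edgeR adjusted p = 0.643). MT1E was at 98.3 and 51.2 CPM at 0 h and at 857 and 859 CPM at 3 h (11.4-fold, edgeR adjusted p = 4.25e-07). MT2A went from 158 and 80.9 CPM to 858 and 909 CPM, and MT1X from 19.5 and 9.32 CPM to 84.1 and 73.9 CPM. In each of the 3 genes replicate 1 of 0 h was the higher control, and both were well below the treated libraries. Metallothionein genes are close paralogs, and shared reads may be split between them. Leaving out any 1 of the 4 libraries left 3 rising. The fourth, MT1M, had a log2 change of 5.03 with an SE of 1.76.

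Among genes of inflammation, directions were mixed. BIRC3, an inhibitor of cell death induced by NF-kB and by glucocorticoids, rose from 56.9 and 52.8 CPM to 618 and 738 CPM (12.3-fold, SE of the log2 change 0.49, edgeR adjusted p = 2.29e-05). Its promoter window holds 2 matches of the kB motif, in capitals in the stretch that follows, shown because NF-kB acts through this motif. The motif was in 15.4% of windows of rising genes, 12.5% of falling genes and 13.1% of all tested genes.
BIRC3 (chr11:102317260-102317383, plus strand): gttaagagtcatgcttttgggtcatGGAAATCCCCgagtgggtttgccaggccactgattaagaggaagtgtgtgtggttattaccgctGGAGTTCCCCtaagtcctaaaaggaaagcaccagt
Another NF-kB feedback gene, NFKBIZ, fell from 382 and 395 CPM to 160 and 151 CPM. In that list 5 of 20 members rose and 2 fell, and the rising count was 1 without replicate 2 of 3 h. The prostaglandin synthase PTGS2 fell from 60.7 and 73.8 CPM to 7.19 and 7.39 CPM (9.21-fold, edgeR adjusted p = 8.45e-08), and the chemokine CCL3, which is in none of the lists, fell from 27.9 and 33.2 CPM to 0.404 and 0.258 CPM, on 8 counts at 3 h. In the list of cytokines and chemokines, 6 of 19 members rose (31.6%, against 11.2% of all tested genes). Another 2 fell (10.5%), near the 8.11% of all tested genes. CSF1, the macrophage growth factor, rose from 16.5 and 10.4 CPM to 41.3 and 45.9 CPM. The rising count there was 1 without replicate 2 of 0 h.

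Of 36 interferon response genes, 1 rose (2.78%, against 11.2% of all tested genes) and 4 fell (11.1%, against 8.11%), and 2 fell without replicate 2 of 0 h or replicate 1 of 3 h. The guanylate-binding proteins showed the largest changes of that list, GBP1 from 37.7 and 67.8 CPM to 2.66 and 4.81 CPM (log2 change -3.82, SE 0.52) and GBP2 from 19.2 and 43.8 CPM to 0.646 and 1.46 CPM (-4.89, SE 0.73). Replicate 2 was the higher of the pair at both times for both genes. IFIT5, an RNA sensor, was the rising member (1.65). Of 26 SOCS and STAT genes 4 rose (15.4%) and 1 fell (3.85%), and 2 rose without replicate 2 of 0 h or replicate 2 of 3 h. The interleukin 6 receptor subunits IL6R (1.88) and IL6ST (0.92) rose, and the factor they signal through, STAT3, fell from 196 and 185 CPM to 122 and 122 CPM.

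Immediate-early transcription factors, which respond within minutes to growth factors and serum, mostly fell. Of 30 tested members 22 fell (73.3%, against 8.11% of all tested genes) and 1, FOSL2, rose (1.0), and the median log2 change was -1.3. With 1 of the 4 libraries left out, 18 to 22 members fell. EGR1, a zinc finger factor, was at 4800 and 4600 CPM at 0 h, at 4650 and 4590 CPM at 1 h and at 132 and 141 CPM at 3 h (34.5-fold lower, SE of the log2 change 0.33, edgeR adjusted p = 1.15e-09). EGR2 fell from 202 and 263 CPM to 4.28 and 5.42 CPM (48.0-fold, edgeR adjusted p = 1.65e-07). EGR4 fell from 22 and 27.0 CPM to 0.727 and 0.86 CPM. No library at 3 h came near the lowest at 0 h for these EGR genes. The AP-1 subunit FOS was at 384 and 385 CPM, then 564 and 478 CPM at 1 h and 32.1 and 31.2 CPM at 3 h (log2 change -3.6, SE 0.34). ATF3, a stress-induced partner of AP-1, fell from 366 and 393 CPM to 30 and 34.6 CPM, and the orphan nuclear receptor NR4A2 fell from 137 and 139 CPM to 12.1 and 13.8 CPM. NR4A2 was already at 65.1 and 73.2 CPM after 1 h, unlike EGR1, FOS and ATF3.

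Genes of the actin cytoskeleton, many of them targets of serum response factor (SRF), formed another list. Of its 38 tested members 13 fell (34.2%, against 8.11% of all tested genes), 4 rose and 21 were not called, with a median log2 change of -0.36, and 6 fell without replicate 1 of 3 h and 10 to 12 without any of the other 3 libraries. TAGLN, an actin-binding protein of smooth muscle, fell from 609 and 657 CPM to 54.9 and 69.7 CPM (10.2-fold, edgeR adjusted p = 1.35e-05). CNN1, the calponin of smooth muscle, fell from 71.9 and 75.7 CPM to 7.43 and 11.7 CPM. LIMA1, which crosslinks actin filaments, fell from 369 and 410 CPM to 66.9 and 67.9 CPM. The members of the list that rose were CAPG, MYH10, MYO1E and PXN, with log2 changes of 0.74 to 1.29. SRF itself, a member of both lists, had a log2 change of -2.1.

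SRF binds the CArG box, and that motif was in 2.81% of the promoter windows of falling genes, 0.78% of those of rising genes and 1.14% of all tested genes. Among falling genes with a log2 change of -2 or lower it was in 7.69% of the windows. Windows of the falling genes CNN1, LIMA1, FOS, ATF3 and EGR4 held no CArG box, and a window of MYO1E, a rising member of the actin list, held 1. The stretches that follow are from EGR1, EGR2, SRF, ACTC1 and ACTG2, falling genes picked because they match. ACTC1 is outside the actin list, and other EGR2 windows held no CArG box. Only matches in the 250 bases before the start are shown, so their closeness to it was set by the windows. Each CArG box is in capitals on the gene's strand. Counted from the start site, the boxes begin at -105 and -83 in EGR1, -71 in EGR2, -30 and -10 in SRF, -109 in ACTC1, and -110 and -73 in ACTG2.
EGR1 (chr5:138465349-138465430, plus strand): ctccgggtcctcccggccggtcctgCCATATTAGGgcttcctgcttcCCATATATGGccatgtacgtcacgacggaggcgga
EGR2 (chr10:62816403-62816462, minus strand): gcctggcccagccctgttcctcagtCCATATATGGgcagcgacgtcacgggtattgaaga
SRF (chr6:43171214-43171268, plus strand): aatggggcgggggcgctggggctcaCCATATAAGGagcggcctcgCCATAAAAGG
ACTC1 (chr15:34795624-34795683, minus strand): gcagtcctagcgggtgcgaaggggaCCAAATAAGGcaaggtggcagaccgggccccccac
ACTG2 (chr2:73892873-73892969, plus strand): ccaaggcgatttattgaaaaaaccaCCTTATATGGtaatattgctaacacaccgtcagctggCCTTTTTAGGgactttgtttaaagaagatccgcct
ACTC1 and ACTG2, the cardiac and enteric actins, had log2 changes of -2.95 and -1.85, and both were named after their values were seen. The TATAAA motif was in 13.0% of windows of falling genes, 6.24% of rising genes and 7.12% of all, and in 29.9% for falling genes at a log2 change of -2 or lower. The AP-1 motif TGANTCA was in 8.16%, 5.16% and 5.72%, the TEAD motif CATTCC in 14.5%, 11.1% and 11.8%, the cAMP element TGACGTCA in 2.61%, 2.0% and 2.66%, and the E-box CACGTG in 6.21%, 9.53% and 8.93% of the windows of falling, rising and all tested genes. These are counts of letters in windows on either strand, in which motifs may overlap, and the median GC content of the windows was 59.3% for falling, 68.3% for rising and 64.0% for all.

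Other strongly falling genes came from several families. KRTAP2-3, a keratin-associated protein, fell from 169 and 156 CPM to 16.2 and 15.7 CPM, and the lncRNA SFTA1P from 90.4 and 87.2 CPM to 14.5 and 11 CPM. SNX18, a sorting nexin of endocytosis, fell from 147 and 163 CPM to 29.5 and 32.7 CPM (log2 change -2.32, SE 0.17, edgeR adjusted p = 1.09e-08). In each of these the 1 h libraries were already below both 0 h libraries. Log2 changes of MAP3K7CL, TUFT1 and RFPL4A were -2.12, -2.43 and -1.88. RFPL4A has a near-identical neighbour, so its count is uncertain. LINC01345, another lncRNA, had a log2 change of -4.59 with an SE of 1.26 on 7 counts at 3 h.

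Matrix and protease genes moved both ways. In the list of matrix proteases and inhibitors, 6 of 28 rose and 7 fell, or 3 and 5 without replicate 2 of 0 h. ADAMTS9, which cleaves proteoglycans, rose from 2.95 and 3.11 CPM to 39.7 and 27.3 CPM, while its relative ADAMTS1 fell from 94.6 and 105 CPM to 11.1 and 17.5 CPM (log2 change -2.81, SE 0.3). Of 19 bone and mineral matrix genes 3 rose and 5 fell, and 1 fell without replicate 1 of 3 h. COL3A1, a fibrillar collagen, fell from 55.6 and 70.0 CPM to 16.4 and 17.1 CPM, and COL5A2 had -0.88, whereas ALPL, the bone alkaline phosphatase, had 1.27. FN1, the fibronectin gene and one of the mesenchymal markers, rose from 691 and 1200 CPM to 2080 and 2550 CPM, and the surface protein THY1 from 33.4 and 23.6 CPM to 101 and 119 CPM. The N-cadherin gene CDH2 rose (0.75) and the E-cadherin gene CDH1 fell (-2.41) from 6.49 and 5.01 CPM to 1.21 and 0.946 CPM. Of 7 tested mesenchymal and bone markers 4 rose (57.1%, against 11.2% of all tested genes) and 1 fell (14.3%, against 8.11%). The falling one was RUNX2, from 121 and 127 CPM to 74.8 and 83.2 CPM. The epithelial markers CLDN4 (-0.39) and EPCAM (-0.4) were not called.

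Of 31 WNT pathway genes, 14 rose (45.2%, against 11.2% of all tested genes) and 4 fell (12.9%, against 8.11%), with a median log2 change of 0.66. The rising count was 8 without replicate 2 of 0 h or replicate 2 of 3 h, 10 without replicate 1 of 3 h and 11 without replicate 1 of 0 h. AXIN2, a feedback inhibitor that reports on beta-catenin, rose from 41.6 and 40.8 CPM to 120 and 130 CPM (log2 change 1.6, SE 0.17, edgeR adjusted p = 1.17e-06). LEF1, a partner of beta-catenin on DNA, rose from 9.51 and 10.0 CPM to 32.9 and 42.5 CPM, and ZNRF3, which removes WNT receptors, had a log2 change of 1.29. All 3 were higher at 3 h than at 2 h in both libraries. Shares in the TGF-beta and BMP list were 26.9% rising and 15.4% falling, against 11.2% and 8.11% of all tested genes. In the TGF-beta and BMP list 7 of 26 rose (2 without replicate 2 of 0 h and 3 without either 3 h library) and 4 fell, with the corepressor TGIF1 rising from 78.2 and 62.7 CPM to 274 and 311 CPM and the activin trap FST falling from 111 and 99.2 CPM to 29.0 and 23.9 CPM. Of 20 NOTCH pathway genes 4 rose (20%, against 11.2%, and 2 without replicate 2 of 0 h or without either 3 h library), among them NOTCH3 (1.14), and the target HES1 fell (-1.2).

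Growth factor genes split by member. The EGF family rose in 35.7% and fell in 21.4% of tested members, against 11.2% and 8.11% of all tested genes. In the EGF family, 5 of 14 rose and 3 fell, and 2 rose without replicate 2 of 0 h or replicate 1 of 3 h. HBEGF, a membrane-bound ligand, rose from 102 and 75 CPM to 234 and 295 CPM, and the receptor EGFR from 16.1 and 13.7 CPM to 40.0 and 49.8 CPM, whereas EGF fell from 11.4 and 26.2 CPM to 2.42 and 3.09 CPM. Of 15 MAPK phosphatases and Sprouty genes 1 rose and 3 fell, with DUSP5 at -1.59, SPRY2 at -0.71 and DUSP7 at 1.25. Among 23 YAP targets 6 rose (26.1%) and 4 fell (17.4%). CCN1, a matricellular protein, fell from 5770 and 5240 CPM to 1610 and 1560 CPM (log2 change -1.8, SE 0.18), and FOXF2 rose (1.94).

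Replication-dependent histone genes, whose RNA lacks a poly(A) tail and is made in S phase, rose in 32 of 51 tested members and fell in none. The rising share was 62.7%, against 11.2% of all tested genes, with a median log2 change of 0.76 and a highest of 1.18. Their calls depended on single libraries, with 33 rising without replicate 1 of 0 h, 3 without replicate 2 of 0 h, 27 without replicate 1 of 3 h and 1 without replicate 2 of 3 h. H3C10 went from 47.5 and 36.3 CPM to 82.8 and 107 CPM, and H2BC14 from 96.0 and 80.2 CPM to 157 and 231 CPM. The DNA replication and E2F list, also of S phase, had 1 rising (2.13%) and 3 falling genes (6.38%) of 47, and its median was -0.08. Many histone genes are near-identical copies, so single members are uncertain. Shares in the mitosis list were 6.52% rising and 17.4% falling, against 11.2% and 8.11% of all tested genes. In the mitosis list 3 of 46 rose and 8 fell, with ECT2 at -0.89 and CDC20 at 0.91, and the falling count was 2 without replicate 2 of 0 h.

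**Figure D3:**
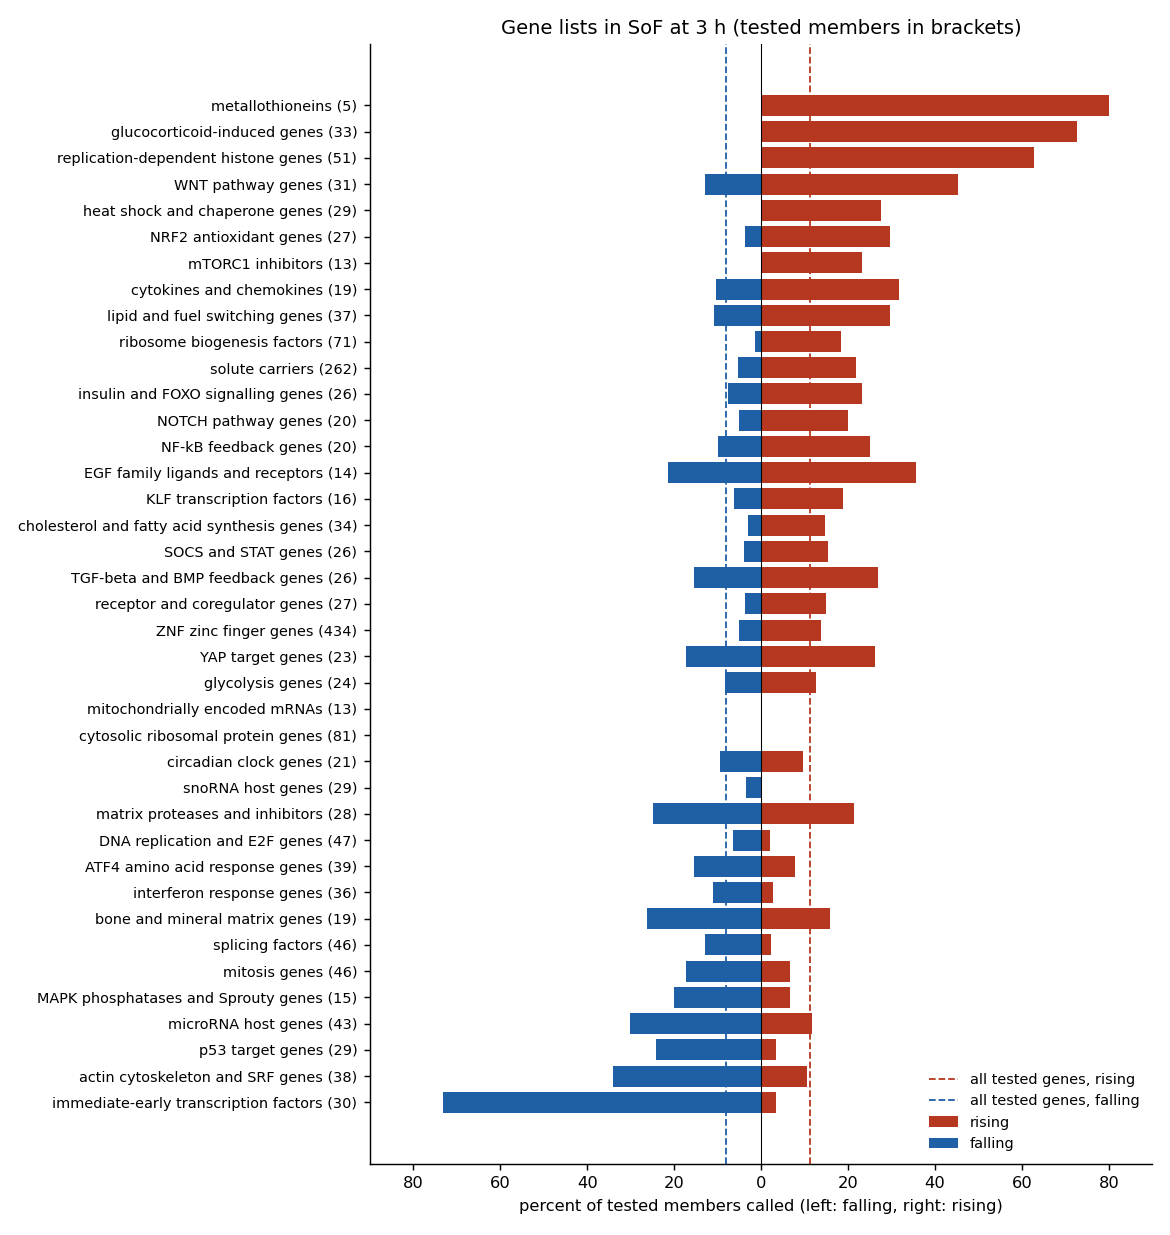
Bars give, for each of 39 gene lists, the percentage of tested members that rose (red, to the right) or fell (blue, to the left) in SoF cells at 3 h, with the number tested in brackets and dashed lines at the shares over all tested genes, 11.2% and 8.11%. Metallothioneins, glucocorticoid-induced genes and histone genes reached furthest to the right, and immediate-early factors furthest to the left.

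Stress and metabolic lists showed smaller shifts. Of tested members, 27.6% of heat shock, 29.6% of NRF2, 7.69% of ATF4 and 3.45% of p53 genes rose. The shares that fell were 0.0%, 3.7%, 15.4% and 24.1%, in that order. Among ribosome biogenesis factors 18.3% rose and 1.41% fell, and among solute carriers 21.8% and 5.34%. The shares over all tested genes were 11.2% and 8.11%. Of 29 heat shock and chaperone genes 8 rose and none fell, including the GR cochaperone FKBP4 (86.5 and 51.4 CPM, then 136 and 155 CPM), but 1 rose without replicate 2 of 0 h. Of 27 NRF2 antioxidant genes 8 rose and 1 fell, and 3 rose without that library or without either 3 h library. In the ATF4 list 3 of 39 rose (0 without replicate 2 of 0 h) and 6 fell, with the cystathionine lyase CTH at -1.57, the stress factor DDIT3 at -1.15 and STC2 at -3.52 on 6 counts at 3 h. Of 29 p53 targets 1 rose and 7 fell (3 without replicate 2 of 3 h), with PLK2 falling from 539 and 451 CPM to 203 and 240 CPM. Of 34 cholesterol and fatty acid synthesis genes 5 rose (14.7%) and 1 fell (2.94%), and of 24 glycolysis genes 3 rose (12.5%) and 2 fell (8.33%), shares near the 11.2% and 8.11% of all tested genes. The rising counts were 1 and 0 without replicate 2 of 0 h and 9 and 8 without replicate 1 of 0 h. The glucose transporter SLC2A1 was among the falling genes (-0.8). Of 71 ribosome biogenesis factors 13 rose and 1 fell, led by BOP1 (1.25), and 4 rose without replicate 2 of 0 h. Solute carriers rose in 57 of 262 and fell in 14, against 26 and 6 without replicate 2 of 0 h.

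None of 81 cytosolic ribosomal protein genes was called, with log2 changes from -0.24 to 0.44, and none of 13 mitochondrially encoded mRNAs, with changes from -0.32 to 0.03. Of 29 snoRNA host genes 1 (3.45%), SNHG21, fell (-0.72). Shares in the splicing list were 2.17% rising and 13.0% falling, against 11.2% and 8.11% of all tested genes. In the splicing list 1 of 46 rose and 6 fell, and none fell without replicate 2 of 0 h or without either 3 h library. Of 21 clock genes 2 rose and 2 fell (9.52% each), CRY1 among them (-0.92), and of 16 KLF factors 3 rose (18.8%) and 1 fell (6.25%). For ZNF zinc finger genes the shares were 13.8% rising and 5.07% falling, near those of all tested genes. ZNF zinc finger genes rose in 60 of 434 and fell in 22 (20 and 9 without replicate 2 of 0 h), with ZNF189 the clearest (25.1 and 35.2 CPM, then 258 and 268 CPM). By contrast, of 43 microRNA host genes 5 rose (11.6%) and 13 fell (30.2%, against 8.11% of all tested genes), and 2 fell without replicate 2 of 0 h or replicate 2 of 3 h.

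Rising and falling genes differed in kind. Among 14693 protein-coding genes 16.2% rose and 7.13% fell, whereas among 5287 lncRNAs 3.78% rose and 10.9% fell. Without replicate 2 of 0 h these shares were 6.77% and 2.74% for protein-coding genes and 1.42% and 3.5% for lncRNAs. The median level was 23.9 CPM for the former and 1.8 CPM for the latter. By chromosome, the share rising was highest on 22 (18.3%) and 20 (16.7%), and the share falling on 18 (13.8%) and 4 (12.1%). Rising protein-coding genes had a median span of 26.5 kb and a median transcript GC content of 54.5%, against 63.7 kb and 43.4% for falling genes and 34.6 kb and 48.2% for all. From the lowest to the highest quartile of GC content the share that rose went from 5.33% to 27.0%, and the share that fell from 11.3% to 2.21%.

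The same trend separated the 2 control libraries. The median log2 difference between replicates 1 and 2 of 0 h went from -0.24 in the lowest GC quartile to 0.36 in the highest, and from 0.35 to -0.15 over quartiles of span, while at 3 h it stayed between -0.11 and 0.02 over GC. Without replicate 2 of 0 h the share that rose went from 3.38% to 10.2% over GC quartiles, and the median log2 change from -0.01 to 0.22. Without replicate 1 of 0 h these were 3.84% to 34.0%, and -0.25 to 0.6. With each library's trend over GC and span removed, 2776 genes rose and 2011 fell, and 24 glucocorticoid-induced genes, 35 histone genes and 4 metallothioneins rose, while 25 immediate-early factors and 17 actin and SRF genes fell. WNT genes rose in 9 of 31 under that correction. The part of base composition in the shares above was not tested further.

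**Figure D4:**
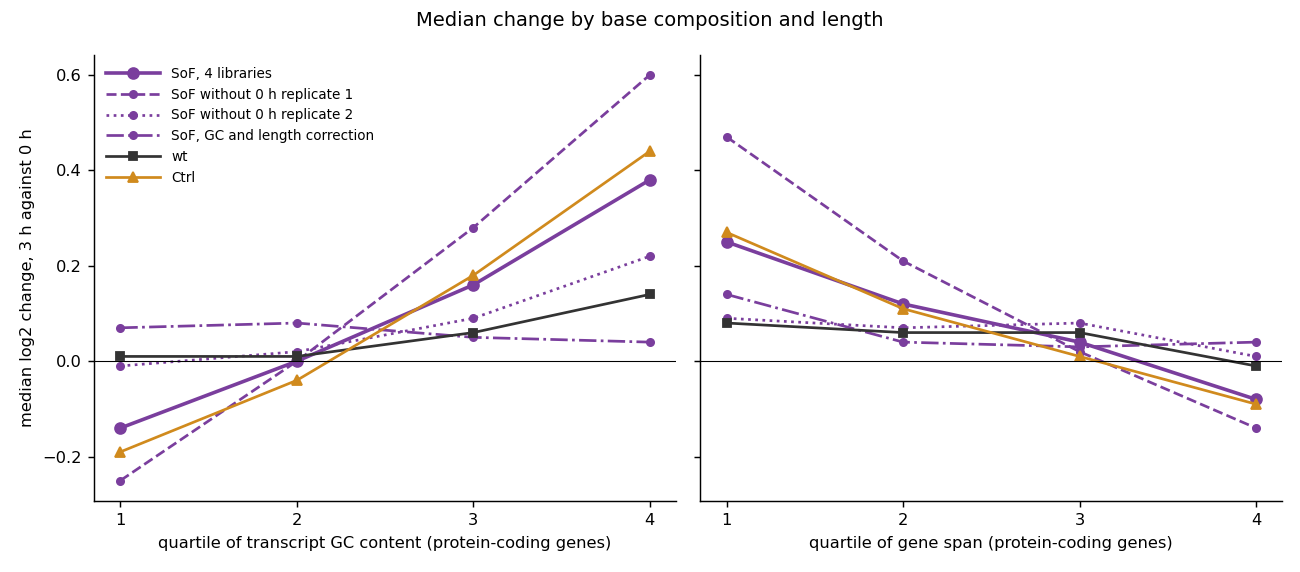
The median log2 change of protein-coding genes at 3 h is plotted by quartile of transcript GC content (left) and of gene span (right), for SoF with all 4 libraries, without each 0 h replicate and after the GC and length correction, and for wt and Ctrl. In the highest GC quartile the SoF median was 0.38 with all libraries, 0.6 without replicate 1 of 0 h, 0.22 without replicate 2 and 0.04 after correction, against 0.14 in wt and 0.44 in Ctrl.

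The genes called in SoF were followed in the other libraries, which entered the call through the shared estimate of spread and the low-count filter but not through the contrast. Of the 2645 rising genes, 99.3% had a positive change in wt at 3 h (median log2 change 0.65) and 98.1% in Ctrl (0.72), against 47.3% and 48.7% of all tested genes. Of the 1918 falling genes, 97.8% had a negative change in wt (-0.69) and 98.2% in Ctrl (-0.78), against 52.6% and 51.3%. Between the SoF libraries at 1 h and 2 h, 90.7% of the rising genes went up and 92.1% of the falling genes went down. From 0 h the median log2 change of the rising genes was -0.09 at 1 h and 0.56 at 2 h, and that of the falling genes 0.08 and -0.55, values that share the 0 h libraries with the call.

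Taken line by line, the glucocorticoid-induced list had a median log2 change of 1.69 in SoF, 1.03 in wt and 0.16 in Ctrl, and the metallothioneins 2.88, 1.64 and 0.39. The immediate-early factors had -1.3, -1.16 and -1.25, the actin and SRF genes -0.36, -0.31 and -0.12, and the histone genes 0.76, 0.34 and 0.63. These medians were not tested between lines, and the part of the difference in NR3C1 level between the lines in them was not tested.

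**Figure D5:**
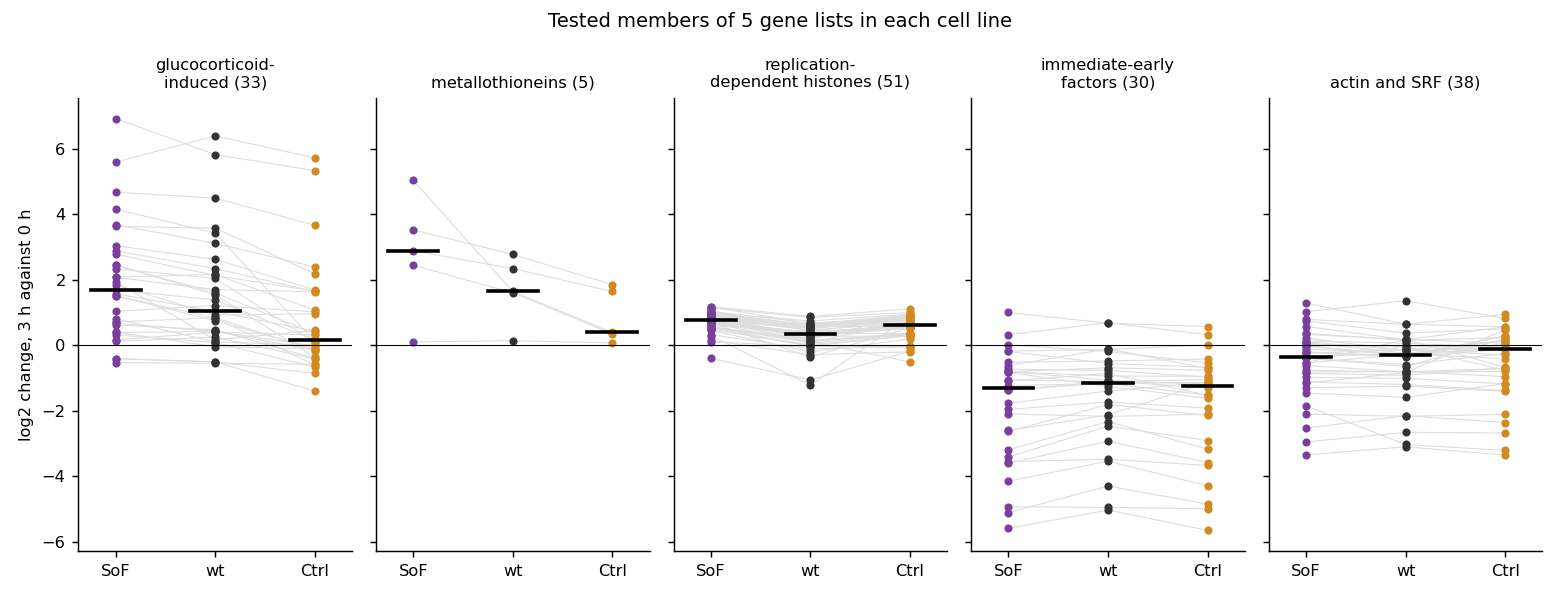
Points are the fitted log2 changes at 3 h of the tested members of 5 gene lists in SoF, wt and Ctrl cells, grey lines join the same gene, and black bars are medians. The bars of the glucocorticoid-induced genes and metallothioneins stepped down from SoF to wt to Ctrl, whereas those of the immediate-early factors lay between -1.16 and -1.3 in all 3 lines.

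The response itself was tested between lines with an interaction contrast. Against wt, 0 of 23651 genes (0.0%) were called for a different 3 h response by edgeR, and 0 by DESeq2. By edgeR, 558 had an unadjusted p under 0.05. Against Ctrl, 3 genes (0.0127%) were called by edgeR and 12 by DESeq2, with 671 at an unadjusted p under 0.05 by edgeR. Both counts at an unadjusted p under 0.05 were lower than that threshold would give with no true difference, so the test was conservative here. With 2 libraries a group, the lack of calls does not show that the lines respond alike. The 3 genes by edgeR were TXNIP, PDK4 and ETNK2, all with a larger rise in SoF. Their differences in log2 change were 2.82 (SE 0.43, edgeR adjusted p = 0.0249), 4.04 (SE 0.65, adjusted p = 0.0327) and 1.61 (SE 0.27, adjusted p = 0.0471). The number was 0 without replicate 1 or 2 of SoF at 3 h, without replicate 1 of Ctrl at 0 h and without either Ctrl library at 3 h. PDK4 was at 0.928 and 1.65 CPM in Ctrl at 0 h and at 6.53 and 10.3 CPM at 1 h. It was then at 1.8 and 3.55 CPM at 2 h and at 1.1 and 1.53 CPM at 3 h. In wt at 3 h PDK4 was at 44.5 and 42.1 CPM. TXNIP was at 20.5 and 16.1 CPM in Ctrl at 0 h, at 38.3 and 33.4 CPM at 1 h and at 12 and 16.6 CPM at 3 h. In wt at 3 h TXNIP was at 33.6 and 49.6 CPM. Both genes were thus higher in Ctrl at 1 h than at 0 h or 3 h. ETNK2 was at 13.9 and 9.3 CPM and then at 16.8 and 16.9 CPM in Ctrl, with no overlap between the times. FKBP5 rose in all 3 lines, to 298 and 297 CPM in SoF, 214 and 224 CPM in wt and 170 and 171 CPM in Ctrl, and its response difference to Ctrl was 1.29 (SE 0.29, edgeR adjusted p = 0.386). Construct and cell pool cannot be told apart in these contrasts, since each line was 1 pool.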

How the data were processed

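Exon counts per gene were deposited for 24 libraries of 4sU-labelled RNA, in 12 groups of line and time with 2 libraries each. Per the study's methods and the submitters' processing notes, the authors collapsed molecular barcodes with UMI-tools 1.1.2, trimmed reads with Trim Galore 0.6.6, aligned them to the human genome (hg38) with STAR 2.7.3a and counted them with featureCounts, and the deposited values are raw counts. That counting used strand is given by the table's title alone. Of 61533 genes in the table, 48707 had a count, and gene spans and types came from GENCODE 44, which matched 99.7% of them. Totals ran from 8106036 to 15820806 counts. Fold floors for genes at 0 cover counting error only.

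Counts were tested with edgeR 4.0.16 (limma 3.58.1, R 4.3.3) by the quasi-likelihood F test after TMM scaling and a filter on low counts (minimum 10 in a library, 15 in total), which left 23651 genes. All 12 groups entered 1 fit and shared the estimate of spread, so the other 20 libraries bear on the SoF contrast through the spread and the filter. P-values were adjusted by Benjamini-Hochberg over all tested genes, and genes were called at an adjusted p under 0.05. CPM values are counts scaled to the total of each library multiplied by its TMM factor. Printed SEs are those of the log2 change. Differences between lines in the 3 h response were interaction contrasts in the same fit. DESeq2 1.42.0, other scalings and filters, other sets of libraries, a replicate block and each replicate left out were the alternatives, and a correction for GC content and gene span was added after seeing the data. Scripts were checked on simulated data.

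The gene lists, markers and motifs were chosen with earlier results of these data known. Genes named were of 4 kinds. Among called genes with a mean of at least 1 CPM in the higher group and libraries that did not overlap, they were the 12 with the smallest p and the 6 with the largest change in each direction. In each list they were the 3 tested members with the smallest p, called or not. NR3C1 and the genes called between lines were added. TSC22D3, CEBPB, CEBPD, DUSP1, PER2, PPARGC1A, PPARGC1B, GAB1, MT1M, MTF1, FOSL2, CAPG, MYH10, MYO1E, PXN, SRF, ACTC1, ACTG2, COL1A2, CD3E and RUNX2 fall outside that rule and were named after their values were seen. In the annotation, 52 of the 151 genes that the rule chose overlap another gene on their strand and 67 overlap one on the opposite strand, and reads of such genes are uncertain. Results for some genes are not reported here.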

Additional observations from a re-analysis of the deposited data

Results flagged for a closer look

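The 3 h response differed between SoF and Ctrl cells by the interaction test for 3 genes. For PDK4 the log2 change was 4.15 in SoF and 0.11 in Ctrl, a difference of 4.04 (SE 0.65, edgeR adjusted p = 0.0327). For TXNIP it was 2.45 in SoF and -0.37 in Ctrl, a difference of 2.82 (SE 0.43, edgeR adjusted p = 0.0249). For ETNK2 it was 2.13 in SoF and 0.52 in Ctrl, a difference of 1.61 (SE 0.27, edgeR adjusted p = 0.0471). In wt cells the log2 changes were 3.43 for PDK4, 1.54 for TXNIP and 1.15 for ETNK2. PDK4 and TXNIP were higher in Ctrl at 1 h than at 0 h or 3 h, so the 3 h values leave out an earlier rise.

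Each of these calls was lost when certain single libraries were left out, with the adjusted p reaching 0.351 for PDK4 without replicate 2 of Ctrl at 0 h, 0.221 for TXNIP without replicate 1 of Ctrl at 0 h and 0.878 for ETNK2 without that same library. PDK4 stayed under the threshold without replicate 2 of SoF at 0 h (adjusted p = 0.0141), TXNIP without that library (0.0234) or replicate 2 of Ctrl at 0 h (0.0163), and ETNK2 without replicate 1 of SoF at 0 h (0.0345) or replicate 2 of Ctrl at 0 h (0.0163). The difference itself stayed between 3.62 and 4.53 for PDK4, 2.6 and 3.08 for TXNIP and 1.27 and 1.92 for ETNK2 with 1 library left out.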

How the results depend on the processing

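With 1 SoF library of the contrast left out, the number of genes called ran from 1772 (without replicate 2 of 0 h) to 5542 (without replicate 1 of 0 h), that of rising genes from 1095 to 2970 and that of falling genes from 677 to 2572. At an adjusted p under 0.01 there were 2251 called, 1464 rising and 787 falling genes, and at a log2 change of at least 1 there were 2205, 1141 and 1064. DESeq2 called 4272, of which 4093 were shared in direction (89.7% of the 4563). The share of calls that rose was 58.0% with TMM and 54.9% with RLE or total-count scaling. The 4 libraries alone gave 3137 calls and the 8 SoF libraries 4364. With the GC and gene length correction, chosen after seeing the data, 4787 genes were called, 3588 of them shared, and 4 of the 151 named genes lost their call, SCAP, PFKP and HSF1 among them. Of the named genes, 25 lost their call without replicate 2 of 0 h, 15 and 16 without replicates 1 and 2 of 3 h, 3 without replicate 1 of 0 h, and 34 fell short of a log2 change of 1. The interaction with wt gave 4 genes without the low-count filter, and that with Ctrl gave 12 by DESeq2, 52 without the filter, 0 at an adjusted p under 0.01, and 0 to 4 with 1 library left out. Uncalled mitochondrial mRNAs changed sign, with MT-ND3 at -0.61 to 0.04 and MT-ATP8 at -0.54 to 0.03 over the fits with 1 library left out, and MT-ND3 at 0.13, MT-ND4L at 0.21 and MT-ATP8 at 0.28 under the correction. The causes were not tested. Same-numbered SoF libraries of 0 h and 3 h deviated with r = 0.04 across genes. Over all pairs of groups r ran from -0.221 to 0.568, with SoF at 0 h at 0.568 with Ctrl at 0 h, 0.434 with SoF at 2 h, 0.396 with wt at 0 h and 0.369 with SoF at 1 h. Since r was not over 0.1 in every pair and the labels name no shared source, the numbers were not taken to pair the samples. A fit with the replicate block called 5142 genes, and 4605 on the 4 libraries alone, and the interactions gave 0 genes with wt and 3 with Ctrl under it. With 2 libraries a group, and 9199479 to 13410755 counts in each, small changes of weakly expressed genes were not detectable.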
